A study of Mus musculus with 6 samples.

Results

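Integrins and the proteins of focal adhesions were examined in RNA from biliary epithelial cells of mouse liver, the cells that line the bile ducts. The genes were picked out of the table by their symbols: the alpha and beta integrin subunits (without Itgal, Itgam and Itgax of leukocytes and Itga2b of platelets), and the talins, vinculin, paxillin, focal adhesion kinase, the ILK, PINCH and parvin genes, zyxin, non-muscle alpha-actinins, the kindlins Fermt1 and Fermt2, the tensins, Bcar1 and Tgfb1i1. Of the 25302 rows of the table, 44 matched, of which 22 were integrin subunits and 22 were intracellular proteins. Genes were tested where their mean over all 6 samples came to 10 or more, which held for 42 of the 44 and not for Itga11 and Itgad. The 3 Control samples had the genotype Sox9fl/fl and the 3 Sox9cKO samples Sox9fl/fl:AlbCre+/-, so the Sox9 alleles, which encode a transcription factor of bile duct cells, were floxed in both groups and Cre recombinase, driven by the albumin promoter, was carried by Sox9cKO alone. That promoter is active in hepatoblasts and hepatocytes, so deletion is not limited to the ducts. Age, sex and the number of mice behind a sample are not given in the labels, so p-values measure only the spread between these samples.

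Integrins are receptors made of 1 alpha and 1 beta subunit that span the membrane and hold a cell to its matrix. The alpha subunit largely sets the ligand: Itga1, Itga2, Itga10 and Itga11 bind collagens, Itga3, Itga6 and Itga7 bind laminins, and Itga5, Itga8 and Itgav bind ligands with an arginine-glycine-aspartate motif such as fibronectin and vitronectin. Inside the cell, talins and kindlins bind the beta tail and switch the receptor on, vinculin and alpha-actinin tie it to actin, and focal adhesion kinase (Ptk2), Bcar1 and paxillin carry the signal on. Ducts rest on a laminin- and collagen-rich basement membrane, and the pairs of Itgav with Itgb6 or Itgb8 are known for releasing TGF-beta from its latent form.

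Reads assigned to genes numbered 11883496 to 16191990 per sample, and each level given here without another unit is a read count scaled for the depth of its library (normalized reads). Sox9 lay between 6043 and 6293 in Control and between 3165 and 3363 in Sox9cKO, in the direction of the labels. The biliary markers Epcam (5501 to 8249 over all samples) and Krt19 (11480 to 26648) were abundant in all 6 libraries. Markers of other cells were present too: the summed level of 12 endothelial markers was 15600, 49730 and 2305 in Control 1 to 3 and 38730, 51670 and 8614 in Sox9cKO 1 to 3. The sums of 14 hepatocyte markers (19090 to 30330 in Control, 23150 to 37340 in Sox9cKO, with Alb at 17384 to 35363 of it) and of 12 stellate and fibroblast markers (3484 to 4245 and 4223 to 5949) overlapped between the groups. Of 13 tested hepatocyte markers, 10 had positive log2 fold changes and 1 was called, Tat, a tyrosine-degrading enzyme (85.7, 66.8 and 123 reads in Control, 336, 449 and 526 in Sox9cKO, log2 fold change 2.26, limma adjusted p 0.00726). The leukocyte sum (1243 to 1472 and 1580 to 1954) did not overlap between the groups, with Csf1r called higher in Sox9cKO, while 9 of the 10 tested leukocyte markers had negative log2 fold changes. The mesothelial sum (954 to 983 and 1158 to 2173) did not overlap either, while 3 of its 6 markers had positive and 3 negative log2 fold changes. Msln was called higher (2.01, limma adjusted p 0.0159). Upk3b (-0.82) and Gpm6a (-0.71) were lower in every Sox9cKO sample and not called. Fewer cells of a type and less RNA per cell cannot be told apart in such samples.

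Among integrin subunits, levels per kilobase of exon were highest for Itgb1, the partner of most alpha subunits, with a mean of 1733 normalized reads per kilobase over the 6 samples. Among alpha subunits, Itga3 (1558), Itga5 (1119) and Itgav (873) led on the same scale, followed by Itga2 (496) and Itga6 (410). The subunits that pair only with one partner were lower: Itgb6 (280), Itgb4 (245), Itgb5 (242) and Itgb8 (122). Actn4 (1892), Actn1 (1127), Vcl (1055) and Tns1 (997) were the most abundant intracellular members per kilobase. The lowest integrin subunits on the scale were Itga4 (0.891), Itga11 (1.1), Itgad (1.95), Itgae (2.40) and Itgb2 (6.95), which are known from leukocytes apart from the fibroblast subunit Itga11.

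In the comparison of Sox9cKO with Control, 1 member rose and 1 fell: the collagen receptor subunit Itga2 was higher and the Itgav partner Itgb8 lower in Sox9cKO. These 2 of 42 tested members (4.76%) stand against 2.97% of the 17153 genes tested (limma, adjusted p under 0.05), a share of the same order as the background, with 2.03% of all genes called higher and 0.939% lower. The 3 Sox9cKO values lay wholly on one side of the 3 Control values for 13 members, 7 of them higher and 6 lower, or 31% against 24.2% of all tested genes (13.4% higher and 10.8% lower). Log2 fold changes were positive for 28 members and negative for 14, and for 9293 and 7860 of the 17153 tested genes. The median log2 fold change of the 42 members was 0.20, and that of all tested genes was 0.036. Quantile normalization gave 0.10 for the members, with 23 positive and 19 negative, and -0.031 for all genes. edgeR called the same number of members, 2, and 2.86% of all genes, and DESeq2 called 8 members and 7.08% of all genes. With the replicate number of the labels as a block, limma called 8 members (19.0%), 7 higher and 1 lower. Over all tested genes the share was 8.05% (5.06% higher and 2.99% lower). The 6 members that limma called with the block over all samples and not without it were Itga1, Itga3, Lims2, Pxn, Actn1 and Tns3, all higher in Sox9cKO. DESeq2, without a block, also called Itga3 (0.0208), Lims2 (0.0219), Pxn (0.0163) and Actn1 (0.00853).

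**Figure D1:**
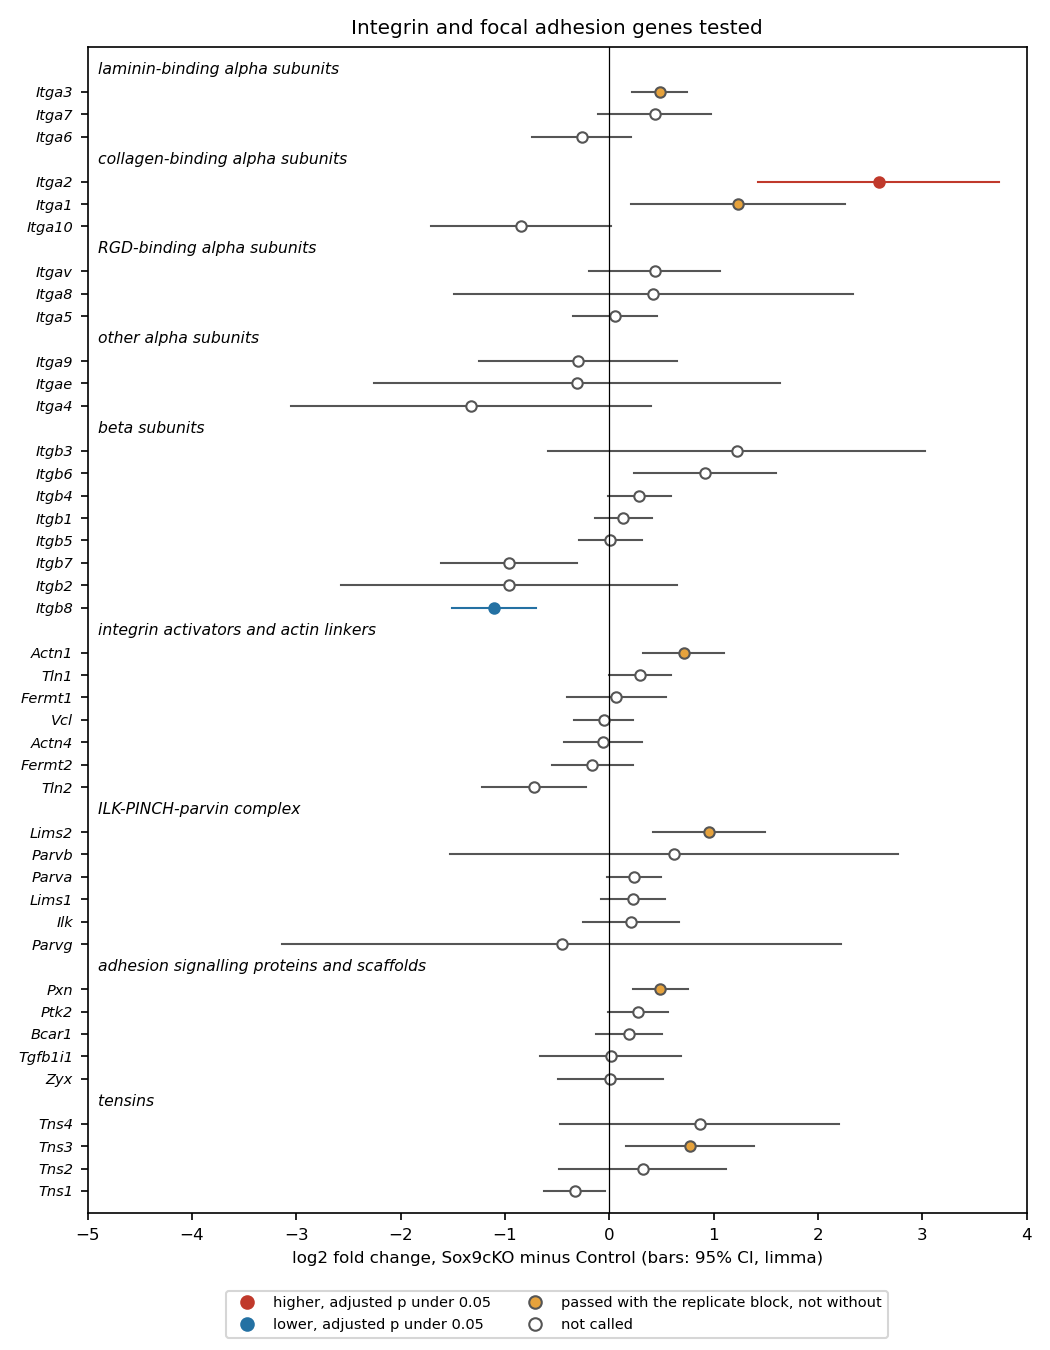
Log2 fold change of each of the 42 tested members (horizontal axis, Sox9cKO minus Control), grouped by role, with the 95% confidence interval from limma as a bar. Itga2 at 2.58 and Itgb8 at -1.10 are the 2 filled as called, and the 6 members in orange passed in limma with the replicate block and not without it.

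Both called genes, and the tensin gene Tns3, are shown by the 250 bases before a RefSeq transcription start on GRCm38.p6, written 5′ to 3′ on the gene's strand (minus for each). Capitals mark matches to AACAAT, the core bound by Sox proteins, on either strand. TGANTCA (AP-1) and CATTCC (TEAD) were searched as well and found in none of these 3 windows. Tns3 is shown as an example of a window with a Sox match. Such a match was also found in windows of Fermt1, Itga8, Itgb6 and Lims1. Windows were available for 30 of the 44 members.
Itga2 (chr13:114932101-114932350): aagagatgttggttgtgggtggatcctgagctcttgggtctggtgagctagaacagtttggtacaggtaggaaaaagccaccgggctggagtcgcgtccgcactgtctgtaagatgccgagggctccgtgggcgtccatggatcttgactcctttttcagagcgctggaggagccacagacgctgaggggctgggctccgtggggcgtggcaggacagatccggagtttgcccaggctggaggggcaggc
Itgb8 (chr12:119238277-119238526): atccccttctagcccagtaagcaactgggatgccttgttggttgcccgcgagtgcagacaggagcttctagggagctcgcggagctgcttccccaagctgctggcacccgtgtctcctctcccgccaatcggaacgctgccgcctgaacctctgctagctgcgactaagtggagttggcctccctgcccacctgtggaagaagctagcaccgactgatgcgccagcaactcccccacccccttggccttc
Tns3 (chr11:8664536-8664785): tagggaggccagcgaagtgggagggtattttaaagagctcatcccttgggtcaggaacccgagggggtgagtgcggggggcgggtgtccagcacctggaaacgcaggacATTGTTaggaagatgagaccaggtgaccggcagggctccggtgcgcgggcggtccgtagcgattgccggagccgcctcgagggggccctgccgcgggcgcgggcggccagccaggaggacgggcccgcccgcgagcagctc
The AACAAT core was found in 5 of the 37 windows of members (13.5%) and in 9.42% of all 32851 windows of this length. TGANTCA was found in 5.41% and 6.75% and CATTCC in 10.8% and 12.6%, respectively. A match describes the letters of the window and does not show a bound site.

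Itga2, the alpha subunit of the main epithelial collagen receptor (ENSMUSG00000015533, chromosome 13), had normalized read counts of 451, 1354 and 1363 in Control 1 to 3 and of 3375, 7967 and 6701 in Sox9cKO 1 to 3. Every Sox9cKO sample exceeded every Control sample, and the lowest sample of each group was number 1. The mean rose 5.69-fold, from 1056 ± 524 to 6014 ± 2372 (SD, n = 3), with a log2 fold change of 2.58, a standard error of 0.49 and an adjusted p of 0.0405 (limma, or 0.000714 with the replicate block). The ratio within each number was similar, at 2.90, 2.56 and 2.30 on the log2 scale. The call ended without any 1 of the 6 libraries, with adjusted p between 0.05 and 0.114 at log2 fold changes of 2.06 to 2.96, and without the intensity trend of the test (adjusted p 0.0805).

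Itga1, the other collagen-binding subunit of appreciable level, had counts of 741, 1537 and 430 in Control and of 2023, 2255 and 1399 in Sox9cKO. The groups overlapped, since Control 2 exceeded Sox9cKO 3. Its log2 fold change was 1.23 (95% interval 0.21 to 2.25), with an adjusted p of 0.200 in limma and 0.0202 with the block. Without Control 2 the change was 1.72 and passed the threshold without the block (adjusted p 0.0371). Itga10, a subunit best known from cartilage, had 54.6, 55.7 and 63.4 reads in Control and 32.8, 18.9 and 50.9 in Sox9cKO, lower in every sample but not called (log2 fold change -0.85, adjusted p 0.293). Itga11, a fibroblast subunit, stayed at 10.4 reads or below in every sample. Per kilobase, Itga2 made up 54.7% to 83.7% of the 4 collagen-binding transcripts in Control and 80.2% to 91.7% in Sox9cKO.

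Itga2 and Itga1 lie next to each other on chromosome 13 in the RefSeq gene order, between Mocs2 and Pelo, with Pelo inside the span of Itga1. On the far side of Mocs2 lies Fst, the gene of the activin antagonist follistatin, which also rose in Sox9cKO, from 62.2, 86.3 and 32.3 to 479, 1079 and 746 (log2 fold change 3.68, limma adjusted p 0.00611). Mocs2, of molybdenum cofactor synthesis, lies between them and was not called (log2 fold change 0.51, adjusted p 0.183), nor was Pelo, a ribosome rescue factor (0.22, adjusted p 0.586).

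**Figure D2:**
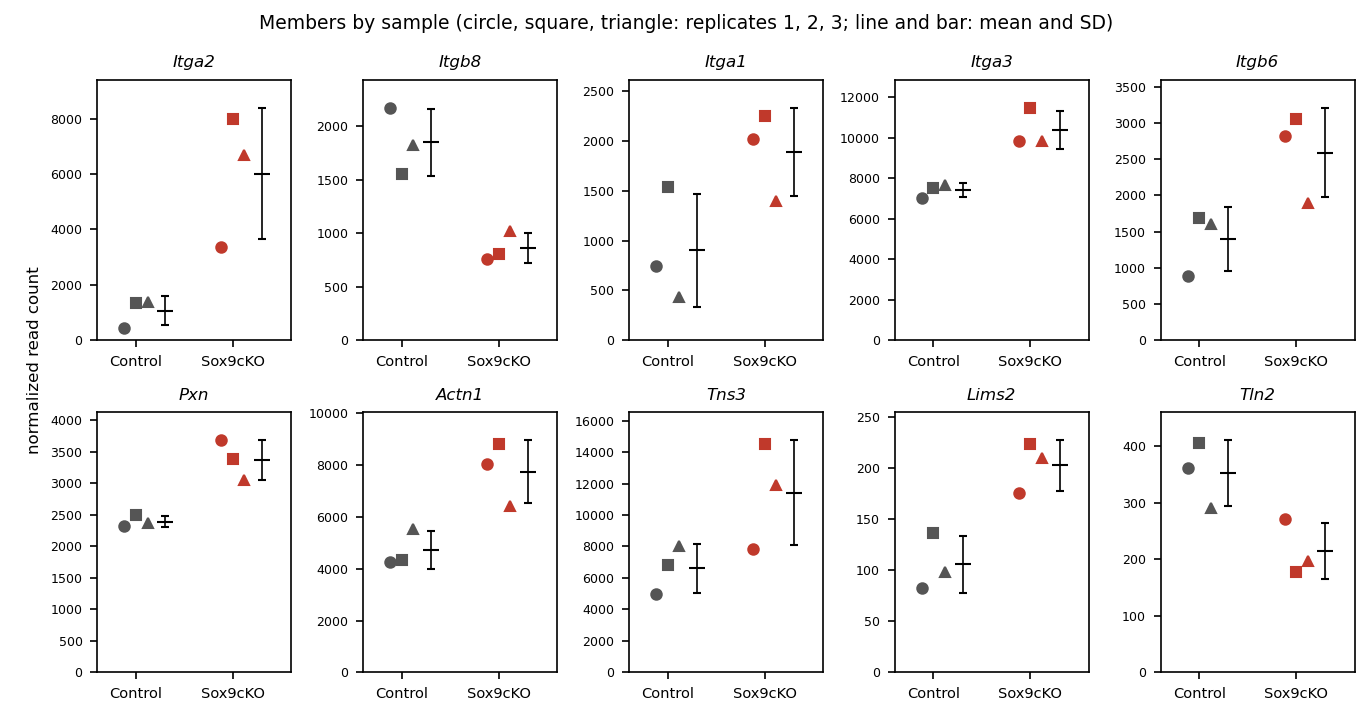
Normalized read counts (vertical axes, each from 0) of 10 members in the 3 Control and 3 Sox9cKO samples, with the mean and SD beside the points. The groups are apart for Itga2, Itgb8, Itga3, Itgb6, Pxn, Actn1, Lims2 and Tln2 and overlap for Itga1 and Tns3.

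Of the laminin receptors, Itga3 had the highest level per kilobase of all alpha subunits. Its counts were 7044, 7514 and 7688 in Control and 9839, 11478 and 9826 in Sox9cKO, with no overlap and an SD of 333 and 950 in the groups. The log2 fold change of 0.48 (95% interval 0.22 to 0.75) missed the threshold in limma (adjusted p 0.0778) and passed with the block (0.0364). Itga6 had 4595, 3199 and 4293 reads in Control and 4016, 2604 and 3476 in Sox9cKO, which overlapped widely (log2 fold change -0.27, adjusted p 0.562). Itgb4, the partner of Itga6 in hemidesmosomes, had 1505, 1415 and 1722 reads in Control and 1976, 1676 and 2021 in Sox9cKO, and was not called (0.29, adjusted p 0.306). Itga7, best known from muscle, lay between 125 and 268 in all samples (0.44, adjusted p 0.384). Of these 4 genes, none was called by limma without the block or by edgeR, and DESeq2 called Itga3 (0.0208).

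Itgb8 (ENSMUSG00000025321, chromosome 12), which pairs only with Itgav, had counts of 2172, 1550 and 1827 in Control and of 757, 803 and 1019 in Sox9cKO. The highest Sox9cKO sample was well under the lowest Control sample. The mean fell from 1850 ± 312 to 860 ± 140 (SD, n = 3), which is a log2 fold change of -1.10 with a standard error of 0.17 and an adjusted p of 0.0198 (limma). The call ended without Control 1, Control 3, Sox9cKO 1 or Sox9cKO 2 (adjusted p 0.0626 to 0.086) and without the intensity trend (0.0552), at log2 fold changes of -1.10 to -0.98. Of its neighbours in the RefSeq order, Macc1 reached the level for testing and was not called (-0.29, adjusted p 0.403).

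Itgb6, the epithelial partner of Itgav that also activates TGF-beta, lay the other way. Its counts were 888, 1694 and 1608 in Control and 2820, 3061 and 1893 in Sox9cKO, without overlap, although Sox9cKO 3 was only slightly above Control 2. The log2 fold change was 0.92 (95% interval 0.24 to 1.6), with an adjusted p of 0.158 in limma and 0.0699 with the block, and of the methods tried only DESeq2 called it (0.0491). Itgb5 was the steadiest of the group, with a mean of 860 ± 112 in Control and 861 ± 19.2 in Sox9cKO (log2 fold change 0.0099, 95% interval -0.29 to 0.31). Itgb3, the beta subunit of platelets and endothelium, was sparse and scattered, at 31.1, 174 and 21.9 in Control and 85.6, 215 and 86.0 in Sox9cKO (1.22, adjusted p 0.471).

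Among the 4 beta subunits that pair with Itgav other than Itgb1, Itgb8 made up 32.8%, 22.7% and 25.9% of the summed level per kilobase in Control and 9.46%, 9.36% and 14.9% in Sox9cKO. Itgb6 made up 20.8%, 38.6% and 35.4% in Control and 54.8%, 55.5% and 43.0% in Sox9cKO. Neither range overlapped between the groups, and Itgb5 overlapped (34.0% to 45.5% and 30.5% to 39.8%). The shares add to a whole, so they are not independent, and they are given without a test because 3 against 3 samples cannot fall below an exact permutation p of 0.10.

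**Figure D3:**
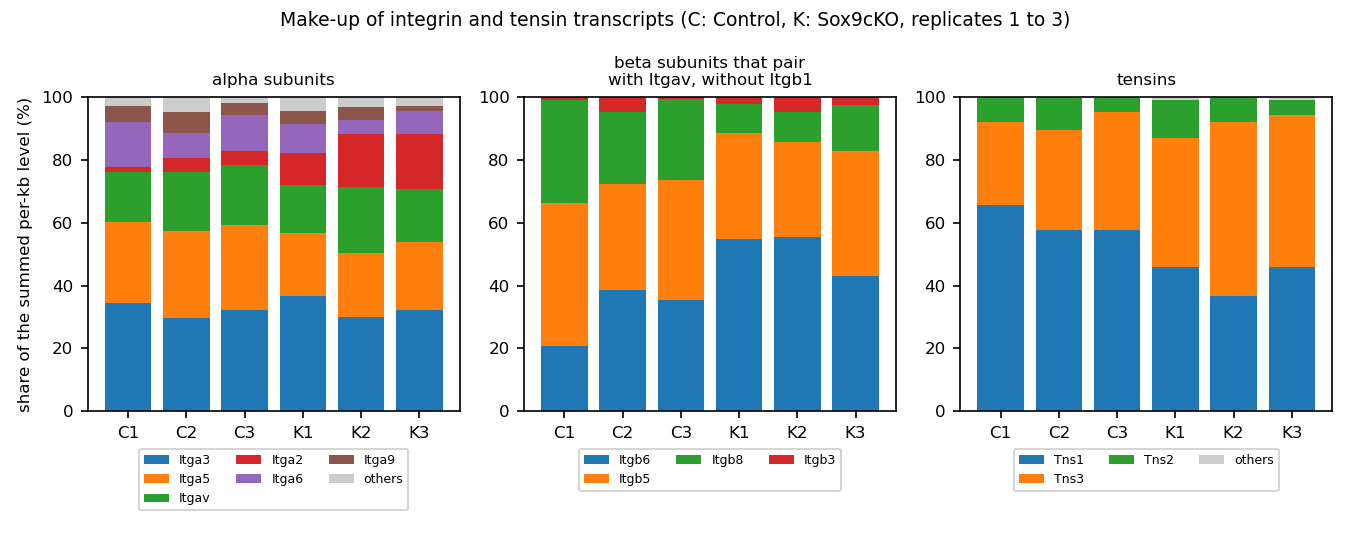
Share of each subunit or tensin in the summed level per kilobase of exon (vertical axis, percent) in each sample, for the alpha subunits, the beta subunits that pair with Itgav without Itgb1, and the tensins. Itga2 takes 1.76% to 4.57% of the alpha subunits in Control and 10.1% to 17.6% in Sox9cKO, and Itgb8 takes less of the Itgav partners in every Sox9cKO sample.

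Itgb1 and Itgav, which are shared by several receptors, and Itga5 were not called (limma). Itgb1 had 6603, 7172 and 6441 reads in Control and 6847, 8220 and 7148 in Sox9cKO, with a log2 fold change of 0.13 (95% interval -0.14 to 0.41). Itgav had 6098, 8906 and 8564 reads in Control and 7720, 15175 and 9788 in Sox9cKO, where sample 2 stood high. Its log2 fold change was 0.43 (95% interval -0.19 to 1.06, adjusted p 0.455). Itga5, the fibronectin receptor subunit, had 4590, 6045 and 5574 reads against 4587, 6649 and 5681, so that same-numbered samples were nearly equal (0.055, 95% interval -0.35 to 0.46). The 95% interval of Itga3 (0.22 to 0.75) overlapped those of Itgb1, Itga5 and Itgav, and differences between these genes were not tested.

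The remaining alpha and beta subunits are known mainly from leukocytes or mesenchyme. Itgb7 had 67.2, 96.5 and 56.5 reads in Control and 31.8, 35.0 and 43.0 in Sox9cKO, without overlap (log2 fold change -0.96, adjusted p 0.132). Itga4 had 12.6, 20.4 and 17.3 reads against 11.9, 11.3 and 1.13 (-1.32, adjusted p 0.409). Itgb2 (-0.96), Itgae (-0.31) and the broadly expressed Itga9 (-0.30) were not called, and Itgad was at 19.6 reads or below in every sample. The mean of each of these leukocyte subunits was lower in Sox9cKO, as were the log2 values of 9 of the 10 tested leukocyte markers. The part of leukocytes in this was not tested. Itga8, best known from stellate cells and smooth muscle, had 215, 626 and 83.0 reads in Control and 489, 479 and 115 in Sox9cKO (0.42, adjusted p 0.838).

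None of the 22 intracellular members was called (limma, with 6 at an unadjusted p under 0.05, against 3047 of all 17153 tested genes). edgeR called none of them either, DESeq2 called 4 (against 7.08% of all tested genes), and limma with the block called 4, all higher (18.2% against 8.05%). Of the 22, 16 had positive and 6 negative log2 fold changes (9293 and 7860 of all 17153 tested genes), with a median of 0.22. Their log2 fold changes ran from -0.72 for Tln2 to 0.96 for Lims2.

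Of the actin linkers, Actn1, an alpha-actinin of stress fibres and adhesions, differed most on the higher side. It had 4246, 4357 and 5554 reads in Control and 8028, 8804 and 6414 in Sox9cKO, without overlap (log2 fold change 0.71, 95% interval 0.33 to 1.10, limma adjusted p 0.0749 and 0.04998 with the block). Its paralog Actn4 had 11545, 10926 and 12855 reads in Control and 14030, 10171 and 10029 in Sox9cKO, which overlapped (-0.060, 95% interval -0.44 to 0.32). Vinculin (Vcl) also overlapped, at 8350, 8209 and 9861 against 8301, 9141 and 7963 (-0.054, 95% interval -0.34 to 0.23).

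The talins lay on opposite sides of 0. Tln1, the talin of most cells, had 4822, 5533 and 4496 reads in Control and 6455, 6332 and 5433 in Sox9cKO, which overlapped between Control 2 and Sox9cKO 3 (log2 fold change 0.30, adjusted p 0.287). Tln2, the scarcer form, had 362, 406 and 290 reads in Control and 272, 178 and 197 in Sox9cKO, all lower (-0.72, 95% interval -1.22 to -0.22, limma adjusted p 0.135), and DESeq2 called it (0.0351). The difference between the paralogs was not tested. The kindlins Fermt1 (0.069) and Fermt2 (-0.16), which help talin activate integrins, had adjusted p-values of 0.901 and 0.669.

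In the complex of integrin-linked kinase, PINCH and parvin, Lims2, which encodes the second PINCH adaptor, was the member furthest from 0. It had 82.4, 136 and 97.9 reads in Control and 175, 223 and 209 in Sox9cKO, without overlap (log2 fold change 0.96, limma adjusted p 0.0812, and 0.0215 with the block). The more abundant Lims1 (0.23), Ilk (0.21) and Parva (0.24) differed less, with adjusted p-values of 0.423, 0.638 and 0.316, although the 2 groups did not overlap for Parva (1547 to 1757 and 1863 to 2116). Parvb and the leukocyte form Parvg varied by more within groups than between them. Parvb had 88.3, 402 and 36.9 reads in Control and 184, 373 and 70.2 in Sox9cKO.

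Among signalling proteins, the scaffold paxillin (Pxn) had 2323, 2494 and 2366 reads in Control and 3682, 3379 and 3055 in Sox9cKO. The groups were apart, and the SD in Control was 88.7 (log2 fold change 0.49, 95% interval 0.23 to 0.75, limma adjusted p 0.0707, and 0.0367 with the block). Focal adhesion kinase (Ptk2) had 1573, 1878 and 1514 reads in Control and 1874, 2076 and 2048 in Sox9cKO. Only Control 2 reached the Sox9cKO range, and the gene was not called (0.28, 95% interval -0.0096 to 0.57, adjusted p 0.299). Bcar1, its substrate, had a log2 fold change of 0.19, Zyx of 0.012 and the paxillin relative Tgfb1i1 of 0.012, with adjusted p-values of 0.525 to 0.989.

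Tensins are proteins of mature adhesions. Tns3 had 4976, 6808 and 8039 reads in Control and 7869, 14501 and 11883 in Sox9cKO, overlapping only in that Sox9cKO 1 was just under Control 3. Its log2 fold change was 0.77 (95% interval 0.16 to 1.39, limma adjusted p 0.187, and 0.0178 with the block). Tns1, the most abundant tensin in Control, was even there at 17835, 17674 and 17703 and had 12646, 13815 and 16098 reads in Sox9cKO, all lower (-0.33, adjusted p 0.227). Per kilobase, Tns1 made up 57.7% to 65.8% of the 4 tensins in Control and 36.8% to 46.0% in Sox9cKO, and Tns3 made up 26.3% to 37.5% and 41.0% to 55.3%. Tns2 (0.32) was not called (adjusted p 0.686). Tns4 had 29.4, 26.9 and 23 reads in Control and 81.6, 18.0 and 78.1 in Sox9cKO (0.87, adjusted p 0.489).

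The order of samples within each group was compared with that of the endothelial markers. All 12 endothelial markers had positive log2 fold changes (median 1.07), with none called by limma, edgeR or DESeq2, 1 at an unadjusted p under 0.05 in limma and 2 called with the block. This order was that of the endothelial sum in both groups for 4 of the 42 tested members, Itga1, Itga9, Parvb and Parvg. That share is near the 8.12% of all tested genes. Itga8, Itgb2 and Itgb3 departed from the order of the sum only between Sox9cKO samples with nearly equal values, and of these Itgb2 had a negative log2 fold change. For Itgb3 those were samples 1 and 3 (85.6 and 86.0 reads), where the sums were 38730 and 8614. Such departures were looked at for members alone, without a share over all genes. The part of endothelial cells in the values of these 7 genes was not tested. In samples 1, 2 and 3, the endothelial sums were 15600, 49730 and 2305 in Control and 38730, 51670 and 8614 in Sox9cKO. In the same order, Itga1 had 741, 1537 and 430 reads in Control and 2023, 2255 and 1399 in Sox9cKO.

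Taken in rising order of the endothelial sum (samples 3, 1 and 2 in both groups), Itga2 had 1363, 451 and 1354 reads in Control and 6701, 3375 and 7967 in Sox9cKO. Itgb8 in that order had 1827, 2172 and 1550 reads in Control and 1019, 757 and 803 in Sox9cKO. Neither gene followed the order of the sum within both groups. The part of endothelial cells in their values was not tested.

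**Figure D4:**
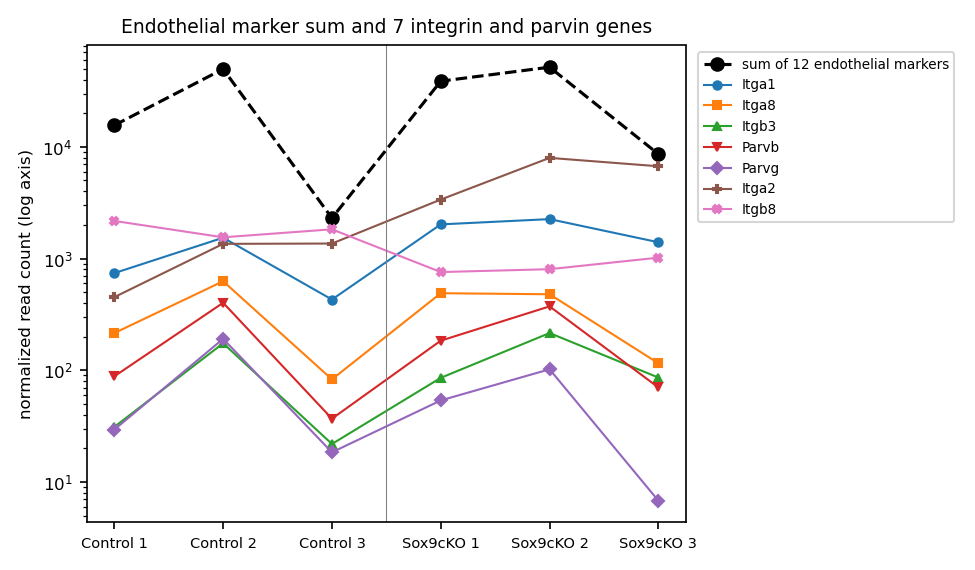
Normalized read counts (log axis) of 7 members and the summed level of 12 endothelial markers in each sample. Itga1, Itga8, Itgb3, Parvb and Parvg are high in Control 2 and low in Control 3 like the sum (49730 and 2305). Itga9 had the order of the sum in both groups and is not drawn. The groups do not overlap for Itga2 and Itgb8. The part of endothelial cells in any of these genes was not tested.

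Among the matrix genes that encode integrin ligands, several rose. Of 34 listed ligands, 33 were tested, and 6 were higher and 1 lower in Sox9cKO (21.2% against 2.97% of all tested genes), with 27 positive log2 fold changes and a median of 0.62. With the block, 14 were called (42.4% against 8.05% of all tested genes), 11 higher and 3 lower, the lower ones being Tgfb3, Lama4 and Spp1. The list was written with earlier results on Fn1 and Tgfb3 known. Vtn, which encodes vitronectin, a ligand of Itgav receptors, had 589, 714 and 303 reads in Control and 11057, 8643 and 8595 in Sox9cKO (log2 fold change 4.21, limma adjusted p 0.00173). Fn1, the fibronectin ligand of Itga5 and Itgav, rose by 1.89 (adjusted p 0.00261). Npnt, the basement membrane ligand nephronectin of Itga8, had 129, 109 and 105 reads in Control and 544, 369 and 568 in Sox9cKO (2.08, adjusted p 0.00445). For these 3 genes the groups lay far apart, and the calls held in each of the 6 fits that left out 1 library.

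Of the laminin chains, the family that Itga3 and Itga6 bind, 3 rose and none fell in limma without the block. Lama3 had 1036, 881 and 1257 reads in Control and 3419, 2353 and 4207 in Sox9cKO (log2 fold change 1.63, limma adjusted p 0.0140). Lamb3 had 784, 600 and 841 against 2184, 1596 and 2450 (1.48, adjusted p 0.0117), and Lamc1 rose by 0.83 (adjusted p 0.0273). Lama5, of the main epithelial laminin, was not called (0.63, adjusted p 0.0503 and 0.0188 with the block). Lama4, a chain of vessel walls and mesenchyme, lay the other way, with 1771, 2682 and 1696 reads in Control and 970, 931 and 338 in Sox9cKO, without overlap. It was not called by limma (-1.57, adjusted p 0.104) and was called lower with the block (0.0151) and by DESeq2 (0.00159). The calls ended without Control 1 or Sox9cKO 1 for Lama3, without Control 1 for Lamb3, and without any 1 library other than Sox9cKO 2 for Lamc1 (adjusted p up to 0.126), which also lost its call without the intensity trend (0.0761).

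Of 7 hemidesmosome partners of Itga6 and Itgb4, 6 were tested and all had positive log2 fold changes, with a median of 0.95. Called as higher were 3 of the 6 (50%, against 2.97% of all tested genes): Lama3, Lamb3 and Dst, which encodes a plakin that ties Itgb4 to keratin. Dst had 6662, 8495 and 8495 reads in Control and 12757, 22896 and 23239 in Sox9cKO (1.27, limma adjusted p 0.0448). Its call ended with edgeR (0.0521), without the intensity trend (0.0882) and without any 1 library other than Sox9cKO 1 (adjusted p up to 0.180). Plec, which encodes the other plakin of the list, was called with the block and not without it (0.56, limma adjusted p 0.0432 and 0.144), and DESeq2 called it too (0.0494). The list shares laminin chains with the ligands, Lama3 and Lamb3 among them, so the 2 counts are not separate.

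Tgfb3, a cytokine held in a latent form, was the 1 ligand that fell in limma without the block, from 450, 313 and 365 to 172, 163 and 186 (log2 fold change -1.10, limma adjusted p 0.0207). It lost its call without any 1 library other than Control 2 (adjusted p up to 0.088). Tgfb1, which Itgav with Itgb6 or Itgb8 releases from its latent complex, had 425, 1565 and 161 reads in Control and 970, 1459 and 326 in Sox9cKO, in the order of the endothelial sum (0.70, adjusted p 0.730). Spp1, the osteopontin ligand of Itgav and Itga9, had 74187, 39519 and 51678 reads against 41470, 30026 and 30910 (-0.66, adjusted p 0.230 and 0.0321 with the block).

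**Figure D5:**
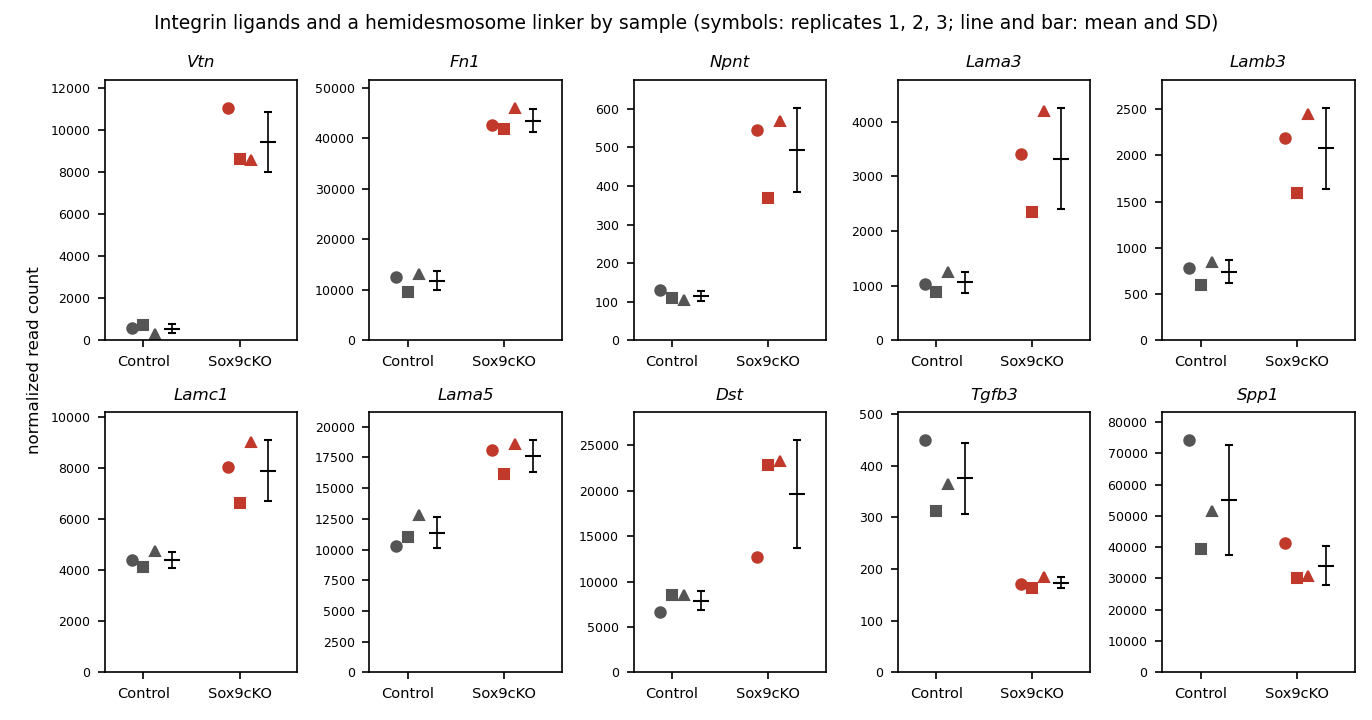
Normalized read counts (vertical axes, each from 0) of 9 integrin ligands and of Dst in the 3 Control and 3 Sox9cKO samples, with mean and SD. Groups are apart in every panel but that of Spp1, and the largest ratio is that of Vtn, with at most 714 reads in Control and at least 8595 in Sox9cKO.

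Further adhesion genes were listed by role. Of 28 tested kinases, adaptors and GTPase regulators, 1 was called (3.57%), a share near the 2.97% of all tested genes. It was Ptk2b, the focal adhesion kinase relative Pyk2. Ptk2b had 1583, 1482 and 1705 reads in Control and 2788, 2667 and 3137 in Sox9cKO (log2 fold change 0.85, limma adjusted p 0.0117). Its call ended without Control 1 (adjusted p 0.0700). With the block 4 of these genes were called, all higher (14.3% against 8.05% of all tested genes): Ptk2b, Git1 (0.53, adjusted p 0.0251), Pip5k1c (0.62, adjusted p 0.0224) and Arhgef6 (1.40, adjusted p 0.0310). Of 28 tested LIM and actin-linking proteins, 10.7% were called by limma, against 2.97% of all tested genes. Tes rose (0.55, adjusted p 0.0405), and Enah (-0.99, adjusted p 0.0317) and Sorbs2 (-0.67, adjusted p 0.0430) fell. With the block 5 were called (17.9% against 8.05% of all tested genes), with Vasp (0.69, adjusted p 0.0188) and Flnc (1.22, adjusted p 0.0036) higher as well. Tes is a zyxin relative of adhesions, Enah lengthens actin filaments at adhesions and Sorbs2 is a vinculin-binding adaptor. Tes also lost its call with edgeR (0.0596), quantile normalization (0.0685) and no filter on low values (0.0522). Without the intensity trend Tes (0.114), Enah (0.0772) and Sorbs2 (0.105) were not called. Tes and Sorbs2 lost their calls without any 1 library, and Enah without any but Sox9cKO 3 (adjusted p up to 0.176 for Tes and Sorbs2 and 0.145 for Enah). Of 15 tail partners and tetraspanins none was called (limma, with 4 at an unadjusted p under 0.05, against 3047 of all 17153 tested genes). For these 15, edgeR called none and DESeq2 called 1 (against 7.08% of all tested genes). With the block 2 were called, both higher (13.3% against 8.05% of all tested genes). They were Cib1, which binds integrin alpha tails (0.98, adjusted p 0.0354), and the integrin-associated Cd47 (0.47, adjusted p 0.0367). Of the 15, 14 had positive log2 fold changes in limma, against 9293 of all 17153 tested genes. Among these 14, Rack1 (0.017) and Cd81 (0.0079) were close to 0 and were negative in edgeR (-0.0093 and -0.025).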

How the data were processed

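RNA was measured in 3 Control and 3 Sox9cKO samples. Per the labels' protocols, ribosomal RNA was depleted from total RNA and stranded libraries carried molecular identifiers. The authors deposited a normalized signal per gene, and every value (100%, tolerance 0.001 reads) was a whole multiple of 1 step per sample, so whole reads were recovered. The submitters' processing notes name DESeq2 1.36.0 and GRCm39. The aligner, the counting program and the use of strand are not given in the sources used here, so reads of overlapping genes cannot be told apart.

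Values were transformed as log2(value + 1), which understates changes of low genes. Genes with a mean of at least 10 were tested with limma 3.58.1 (intensity trend, R 4.3.3), two-sided, with Benjamini-Hochberg adjustment over all tested genes and a threshold of 0.05. Calls were compared with edgeR 4.0.16 and DESeq2 1.42.0 on recovered reads, and with 6 fits that each left out 1 library. The fit was also run on simulated data, whose outcome is not given here. Replicate numbers come from the labels. The deviations of same-numbered samples correlated across genes at 0.207, 0.472 and 0.542. Those of differently numbered samples correlated at -0.437 to 0.0476. Deviations within a group are tied to each other, so these correlations are not independent. They are also taken from the same data. The main fit held the group alone and did not use the numbers. The numbers were used as pairs only in the fits with the replicate block and in the ratios within each number. The sample titles do not say what the numbers stand for. Endothelial sums had the same order of numbers in both groups, and their part in the pairing was not tested. Levels per kilobase used exon lengths of GENCODE M21 (GRCm38). Upstream sequences came from RefSeq on GRCm38.p6.

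The members and lists were chosen with earlier results of these data known. Values per sample are given for called members, for members whose groups do not overlap and differ by at least 0.5 (log2), and for the main shared partners. From each pathway list, up to 5 called genes and known ligands are named. Other genes were named after their values were seen. Further limits come from depth: read counts per sample set counting error only.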

Additional observations from a re-analysis of the deposited data

How the results depend on the processing

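Results were recomputed under 19 alternatives, of which the 2 that leave out both samples of a number were added after the data were examined. Of 790 recomputed fold changes of members, 714 kept direction and side of the threshold, 16 lost a call, 16 gained one and 44 changed sign, all of the last in genes that were not called. The number of genes called was 510. It was 1381 with the replicate block, 1160 with edgeR and the replicate block, 1214 with DESeq2, 236 without both number 2 samples, 50 without both number 3 samples, and 200 to 389 without 1 library. The number of members called was 2. It was 8 with the replicate block, 5 with edgeR and the block, 8 with DESeq2, 0 without the intensity trend (11 at an unadjusted p under 0.05 in limma), 0 without both number 2 samples (10 unadjusted), 0 without both number 3 samples (14 unadjusted), and 0 to 2 without 1 library. The cause was not tested, beyond the smaller number of samples where some were left out. Over all genes the unadjusted counts were 2998 without the intensity trend, 2116 without both number 2 samples and 2305 without both number 3 samples. The replicate block changed no other call of a member than those given above. Sox9 fell by 0.91 on the log2 scale. Without both number 2 samples its change was -0.90 (adjusted p 0.0522), without both number 3 samples -0.91 (0.0972), and without 1 library -0.93 to -0.88.

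Sign changes were found with quantile normalization for Fermt1 (-0.030), Itga5 (-0.055), Itgb5 (-0.11), Tgfb1i1 (-0.098) and Zyx (-0.059). With edgeR, edgeR with the block and DESeq2 in turn, Itgb5 was -0.042, -0.035 and -0.036, Tgfb1i1 -0.040, -0.034 and -0.035, and Zyx -0.015, -0.028 and -0.0063. Without both number 2 samples Itgb5 was -0.071, Zyx -0.16 and Itgae 0.40, and without both number 3 samples Actn4 was 0.089, Vcl 0.073 and Tgfb1i1 -0.013. Without 1 library the ranges were -0.22 to 0.024 for Actn4, -0.091 to 0.23 for Fermt1, -0.31 to 0.0032 for Fermt2, -0.072 to 0.20 for Itga5, -0.29 to 1.16 for Itga8, -0.66 to 0.12 for Itga9, -1.11 to 0.11 for Itgae, -0.089 to 0.10 for Itgb5, -0.16 to 1.55 for Parvb, -1.23 to 0.63 for Parvg, -0.21 to 0.21 for Tgfb1i1, -0.11 to 0.030 for Vcl and -0.13 to 0.23 for Zyx. The cause was not tested.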

Other observations

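Several pairs of related adhesion genes were compared as ratios of normalized reads within each sample, which do not depend on the scaling of the sample. The pairs were chosen after their values were seen, so the ratios are a description without a test. The ratio of Itgb6 to Itgb8 was 0.409, 1.09 and 0.880 in Control and 3.72, 3.81 and 1.86 in Sox9cKO. Actn1 to Actn4 was 0.368, 0.399 and 0.432 against 0.572, 0.866 and 0.640, Tns3 to Tns1 was 0.279, 0.385 and 0.454 against 0.622, 1.05 and 0.738, and Tln1 to Tln2 was 13.3, 13.6 and 15.5 against 23.8, 35.6 and 27.6. The groups did not overlap for any of these 4 pairs. They overlapped for the other pairs computed, Fermt1 to Fermt2 (0.534 to 0.816 and 0.508 to 1.22) and Itga2 to Itga1 (0.610 to 3.17 and 1.67 to 4.79).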
